A study of Mus musculus with 6 samples.

Results

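A set of 10 genes that mark macrophages of the heart, resident and recruited, were followed across 6 RNA sequencing libraries, and each was found by symbol among the 32479 rows of the deposited table. They were Lyz2, Cd163, Mrc1, Adgre1, Csf1r, Cd68, C1qa, Lyve1, F13a1 and Ccr2. The libraries came from C57BL/6J mice, 3 of them controls and 3 given carbon tetrachloride (CCl4), a solvent that injures and scars the liver, as a model of cirrhosis. Each library was labelled as primary cardiac fibroblasts, and neither group carries an engineered allele in the labels. The sources used here do not give the dose, route or duration of CCl4, any vehicle given to controls, or the age and sex of the mice. The design names 3 mice in each group and cells isolated at the end of treatment. That each library is 1 mouse is not stated, so p-values measure the spread between these libraries, which may be technical.

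Macrophages are phagocytes that clear dead cells and debris. The heart holds a long-lived resident population, much of it seeded before birth and kept up by local division, and a second population that is replenished from blood monocytes. In mouse heart, resident cells are commonly recognised by Lyve1, Timd4 and Folr2 and by scavenger receptors such as Cd163 and Mrc1, whereas Ccr2, the receptor for the chemokine CCL2, marks cells recently derived from monocytes. Csf1r, Adgre1, Cd68, C1qa and Lyz2 are shared by both.

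In CCl4 libraries 2 of the 10 genes were lower, 1 was higher, 6 did not pass the test and 1 lay under the level needed for testing. Cd163, a scavenger receptor for haemoglobin bound to haptoglobin, fell from 6.27 ± 0.750 to 2.73 ± 0.662 FPKM (SD, n = 3 each). Lyve1, a receptor for the matrix sugar hyaluronan, fell from 7.63 ± 1.74 to 3.83 ± 0.714 FPKM. Cd68, a glycoprotein of the lysosome membrane, rose from 4.06 ± 0.732 to 5.99 ± 0.111 FPKM. The shared identity genes Csf1r, Adgre1, C1qa and Lyz2 showed no called difference. FPKM are fragments scaled to the length of the gene model and to the mapped fragments of the library, so they can be compared between genes. A gene was called where limma gave an adjusted p under 0.05 on log2(FPKM + 1), over all 10995 rows with a mean of at least 1 FPKM.

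Those counts sat near the background of the table. Of all tested rows 31.8% were called, 9.64% of them higher and 22.2% lower in CCl4, percentages of all rows tested. One higher and 2 lower among the 9 tested macrophage genes is close to that, so the number of calls says nothing particular about them. Their median log2 fold change was -0.06, against -0.09 over all tested rows. The share of calls that were higher was 30.3% as deposited, and it moved with the scaling of the libraries, to 12.8% after rescaling to a common sum (TPM), 20.4% without mitochondrial rows, 47.2% with trimmed-mean (TMM) scaling, 49% with median-ratio scaling and 51.2% with quantile scaling. The median of all rows was -0.23 as TPM, so that small differences are to be read against that shift.

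The libraries were not macrophage preparations, nor did they look like pure fibroblasts. The 11 genes of a cardiomyocyte list summed to 12414 to 15209 FPKM in control and 18448 to 20365 FPKM in CCl4 libraries, groups that lay apart. Only 2 genes were called higher (1 to 4 over the alternatives, with 1 as TPM or without mitochondrial rows), where 9.64% of all tested rows were. They were Actc1, from 1735 ± 477 to 5840 ± 261 FPKM (limma adjusted p = 0.00037), and Myl2, from 1483 ± 63.7 to 1787 ± 147 FPKM (adjusted p = 0.0489, just under the threshold). The other 9 were not called, 2 of them on the lower side, so the sum does not stand for the whole list. Over all 6 libraries the 13 genes of a fibroblast list summed to 484 to 789 FPKM and the 10 macrophage genes to 133 to 169 FPKM. Mitochondrial rows took 48.6% to 50.7% of the FPKM sum in control and 52.0% to 53.2% in CCl4 libraries. The part of these shifts in the differences of the macrophage genes was not tested, though ratios between genes of 1 library, given further on, do not depend on the library's sum. The leukocyte gene Ptprc was at 0.657 ± 0.107 and 0.573 ± 0.110 FPKM. In such bulk libraries, fewer macrophages and less RNA of a gene per macrophage cannot be told apart.

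Promoters are shown for the member that fell furthest (Cd163), for the one that rose (Cd68), and for the most and the least abundant members (Lyz2 and Ccr2). RefSeq promoters on GRCm38.p6 were taken for 6 of the 10 genes. Each line gives the 250 bases before the start annotated by RefSeq, 5′ to 3′ on the gene's own strand, at chr6:124304401-124304650 (plus strand), chr11:69666171-69666420 (minus), chr10:117282273-117282522 (minus) and chr9:124101933-124102182 (plus). The GENCODE and RefSeq starts differ, so 233 bases of the Ccr2 window and 49 of the Lyz2 window lie inside the GENCODE gene, and none of the other 2 windows does. Capitals mark matches to the motifs searched.
Cd163: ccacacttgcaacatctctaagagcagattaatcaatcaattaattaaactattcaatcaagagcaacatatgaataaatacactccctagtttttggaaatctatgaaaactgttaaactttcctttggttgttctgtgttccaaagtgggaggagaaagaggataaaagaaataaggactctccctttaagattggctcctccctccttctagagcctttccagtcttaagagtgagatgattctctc
Cd68: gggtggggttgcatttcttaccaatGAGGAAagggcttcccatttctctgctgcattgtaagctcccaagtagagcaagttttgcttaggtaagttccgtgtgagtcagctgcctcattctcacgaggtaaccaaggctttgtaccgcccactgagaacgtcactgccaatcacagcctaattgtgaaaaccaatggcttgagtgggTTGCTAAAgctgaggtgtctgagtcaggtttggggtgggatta
Lyz2: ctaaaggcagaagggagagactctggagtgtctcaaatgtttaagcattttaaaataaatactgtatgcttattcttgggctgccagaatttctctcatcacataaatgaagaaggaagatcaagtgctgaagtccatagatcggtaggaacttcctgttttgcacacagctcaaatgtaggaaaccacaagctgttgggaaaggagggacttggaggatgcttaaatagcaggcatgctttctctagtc
Ccr2: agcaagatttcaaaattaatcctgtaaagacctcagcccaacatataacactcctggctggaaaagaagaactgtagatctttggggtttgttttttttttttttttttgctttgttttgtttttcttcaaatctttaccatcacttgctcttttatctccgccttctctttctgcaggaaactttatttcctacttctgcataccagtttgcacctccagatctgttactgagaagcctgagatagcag
The motifs were GAGGAAGT and its core GAGGAA for PU.1, the lineage factor of macrophages, TTGCNNAA for C/EBP factors and TGCTGAC for MAF factors, on both strands, and a match to the longer PU.1 motif is always a match to the core as well. Of 32851 promoter windows of this length, 2.44% held GAGGAAGT, 23.3% GAGGAA, 9.56% the C/EBP motif and 3.81% the MAF motif. The Cd68 window held GAGGAA beginning 225 bases before the start and the C/EBP motif as TTGCTAAA beginning 43 bases before it. The windows of Cd163, Lyz2 and Ccr2 held none of these letters, which says nothing about the factors themselves. Of the promoters not printed, the Mrc1 window held the PU.1 core 3 times, and 1 of the 2 F13a1 windows held it once.

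Levels differed widely among the 10 genes. In control libraries Lyz2 averaged 86.1 ± 11.5 FPKM and C1qa 25.0 ± 3.70 FPKM, and by mean level over the 6 libraries they stood at percentiles 97.1 and 90.3 of tested rows. Their ranges lay apart from each other and from every other member. Csf1r, Lyve1, Cd163, F13a1, Mrc1, Cd68 and Adgre1 followed between 7.68 and 3.70 FPKM, and the ranges of neighbours in that order overlapped over the 3 control libraries. Ccr2 came last at 0.493 ± 0.0839 FPKM, apart from the rest. In CCl4 libraries Lyz2, C1qa and Csf1r kept the top of the order and Ccr2 its end, while Cd163 went from place 5 to place 9, Lyve1 from place 4 to place 7 and Cd68 from place 8 to place 4. From Cd68 down to Cd163 the ranges of neighbours overlapped there too.

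**Figure D1:**
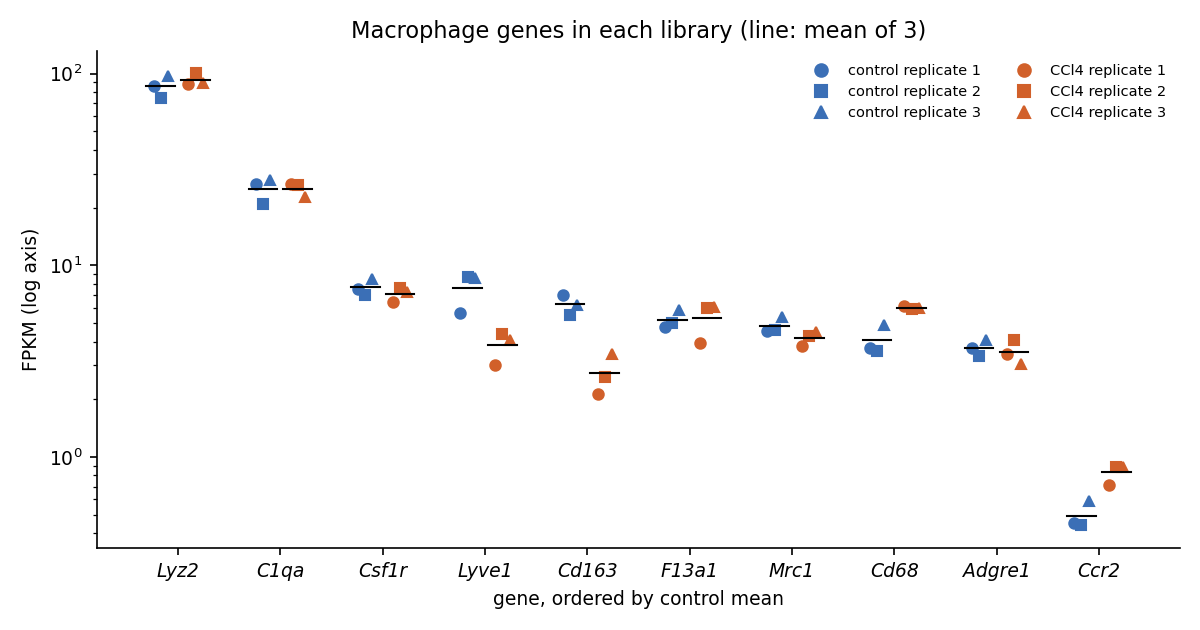
FPKM of the 10 macrophage genes in each library on a log axis, control in blue and CCl4 in orange, with a line at the mean of 3 libraries. Cd163, Lyve1 and, narrowly, Mrc1 lay lower and Cd68 and Ccr2 higher in all 3 CCl4 libraries than in any control library. Groups lay apart in 48.7% of all tested rows, which do not include Ccr2.

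Among scavenger and endocytic receptors, Cd163 (ENSMUSG00000008845, chromosome 6 at 124304656 to 124330527 in GRCm38, 16 exon blocks) changed most. It was at 7.03, 5.53 and 6.24 FPKM in control replicates 1 to 3. It was at 2.13, 2.62 and 3.44 FPKM in CCl4 replicates 1 to 3. The highest CCl4 library thus lay below the lowest control library, and the control mean was 2.30 times the CCl4 mean. The log2 fold change was -0.97 ± 0.14 (SE, limma, adjusted p = 0.00175), with a 95% interval from -1.28 to -0.66.

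Lyve1 (ENSMUSG00000030787, chromosome 7 at 110850607 to 110863239) was at 5.62, 8.68 and 8.60 FPKM in control libraries. In CCl4 libraries it was at 3.02, 4.37 and 4.10 FPKM. The groups did not overlap, although control replicate 1 stood nearer to the CCl4 libraries than the other two controls did. The log2 fold change was -0.83 ± 0.17 (SE, limma, adjusted p = 0.00828), with a 95% interval from -1.21 to -0.44.

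Lyve1 also marks lymphatic endothelium, so other genes of that cell type stand beside it. Of 6 tested genes of a lymphatic list that includes Lyve1, Ccl21a rose and Lyve1 fell. In all tested rows 9.64% were called higher and 22.2% lower. Ccl21a, a chemokine of lymphatic vessels, was at 10.2 ± 2.53 and 19.8 ± 6.70 FPKM (log2 fold change 0.86, limma adjusted p = 0.0233), a call lost without control replicate 1 (0.75, adjusted p = 0.0595), control replicate 2 (0.80, 0.0671) or CCl4 replicate 1 (0.62, 0.0528). Prox1, the transcription factor of lymphatic identity that is also made by heart muscle, was at 6.56 ± 0.943 and 6.02 ± 0.382 FPKM (adjusted p = 0.472). Mmrn1, a secreted protein of lymphatic vessels and platelets, was at 1.98 ± 0.571 and 1.20 ± 0.407 FPKM (adjusted p = 0.0824). Pdpn, a membrane glycoprotein of lymphatic vessels and activated fibroblasts, was at 0.740 ± 0.122 and 1.34 ± 0.492 FPKM, thus on the higher side in CCl4 (adjusted p = 0.0706). The summed level of the list, Lyve1 included, was 23.5 to 35.03 FPKM across controls and 28.8 to 41.4 FPKM in CCl4 libraries, and the part of lymphatic endothelium in the Lyve1 difference was not tested.

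Mrc1 (ENSMUSG00000026712, chromosome 2 at 14229392 to 14332057), the mannose receptor, was at 4.53, 4.60 and 5.36 FPKM across controls and 3.81, 4.28 and 4.49 FPKM in CCl4 libraries. The groups lay just apart, as 48.7% of all tested rows did. Its log2 fold change was -0.17 ± 0.09 (SE), with a 95% interval from -0.37 to 0.04, and did not pass (limma adjusted p = 0.184). After TPM scaling it was -0.32 and passed (adjusted p = 0.0311), where 38.4% of all rows were called lower.

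Within a library the ratio of 2 genes does not depend on how the library is scaled. Cd163 stood at 0.939, 0.787 and 0.732 times the FPKM of Csf1r in control libraries. It stood at 0.330, 0.344 and 0.476 times in CCl4 libraries. The Lyve1 to Csf1r ratio was 0.998 ± 0.242 in control and 0.536 ± 0.0590 in CCl4, and the Cd68 to Csf1r ratio 0.526 ± 0.0424 and 0.849 ± 0.0892 (SD, n = 3 each). These 3 ratios lay apart between the groups, and so did the same 3 genes over Mrc1 and over Adgre1. The ratios of Mrc1, C1qa, Adgre1 and F13a1 to Csf1r overlapped, with Mrc1 at 0.629 ± 0.0248 and 0.591 ± 0.0297. That of Lyz2 was 11.2 ± 0.544 and 13.1 ± 0.694, with the groups apart. The ratios share the Csf1r value of each library and were given no test. Cd163, Lyve1 and Cd68 already lay apart in FPKM, so the separation of their ratios adds little. The share of all rows whose ratio to Csf1r lies apart was not computed.

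**Figure D2:**
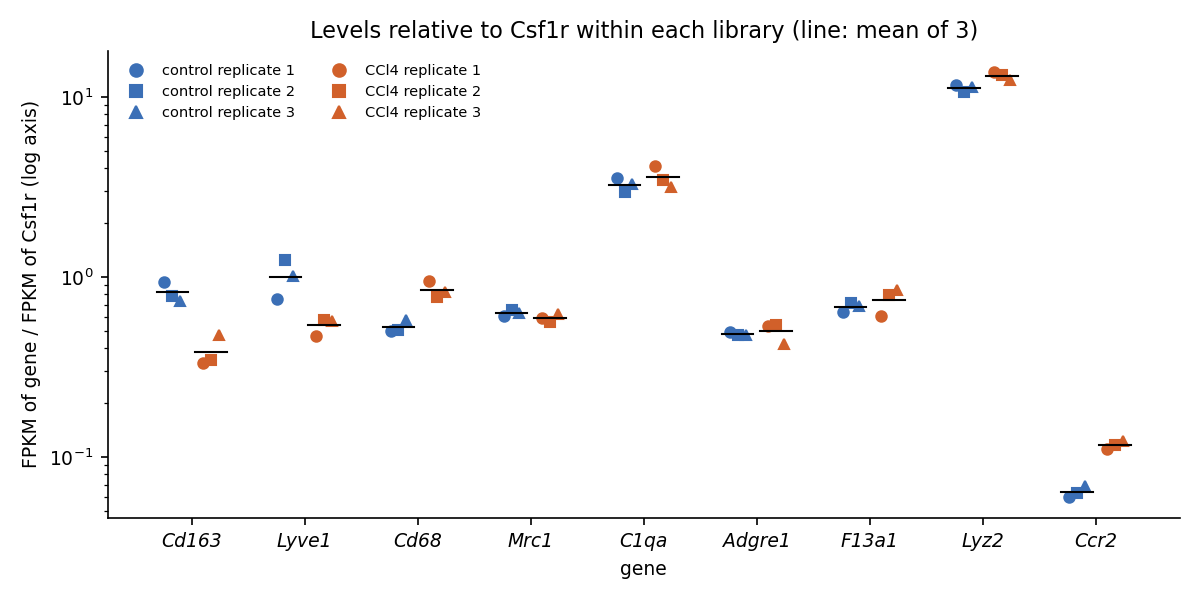
FPKM of each macrophage gene divided by that of Csf1r in the same library, on a log axis, control in blue and CCl4 in orange, with a line at the mean of 3 libraries. The Cd163 and Lyve1 ratios were lower and the Cd68, Lyz2 and Ccr2 ratios higher in every CCl4 library than in any control library. All of these genes but Lyz2 lay apart in FPKM as well.

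Among lysosomal and secreted proteins, Cd68 (ENSMUSG00000018774, chromosome 11 at 69664213 to 69666153) was the called rise. It was at 3.72, 3.56 and 4.90 FPKM in control libraries. It was at 6.11, 5.89 and 5.98 FPKM in CCl4 libraries. The CCl4 libraries lay close together and above every control library. The log2 fold change was 0.48 ± 0.10 (SE, limma, adjusted p = 0.0113), with a 95% interval from 0.24 to 0.72, and the CCl4 mean was 1.48 times the control mean. Cd68 is enriched in macrophages but present at low level in the lysosomes of other cells, among them fibroblasts. The fibroblast list had 7 of 13 tested genes higher and none called lower, where 9.64% of all tested rows were called higher. Its sums were 484 to 789 FPKM across controls and 650 to 661 FPKM in CCl4. Most of each sum came from Gsn (means 414 and 358 FPKM) and Dcn (103 and 81.7 FPKM), neither of them called. The sums thus do not stand for the 7 genes called higher. The part of fibroblasts in the Cd68 difference was not tested.

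Lyz2 (ENSMUSG00000069516, chromosome 10 at 117277331 to 117282321), the bacteria-degrading lysozyme of macrophages and neutrophils, was at 86.8, 74.3 and 97.3 FPKM across controls and 88.6, 100.4 and 89.3 FPKM in CCl4 libraries. The groups overlapped, and the log2 fold change was 0.11 with a 95% interval from -0.14 to 0.37 (limma adjusted p = 0.46). The neighbouring copy Lyz1 shares 32.8% of the 31-base words of Lyz2 transcripts, so reads could be split between the pair. Lyz1 was at 1.21 ± 0.271 and 0.673 ± 0.0929 FPKM, little beside Lyz2. Neutrophil genes were carried mainly by control replicate 1, where the 10 genes of that list summed to 32.1 FPKM against 2.77 to 6.80 FPKM in the other 5 libraries, and Lyz2 in that library lay between the other controls.

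C1qa (ENSMUSG00000036887, chromosome 4 at 136895917 to 136898803), the A chain of the complement recognition molecule C1q, was at 26.4, 20.9 and 27.9 FPKM across controls and 26.5, 26.1 and 22.9 FPKM in CCl4 libraries. The groups overlapped throughout, with a log2 fold change of 0.01 and a 95% interval from -0.26 to 0.28 (limma adjusted p = 0.939). Its partner chain C1qb was at 26.6 ± 2.55 and 25.6 ± 1.90 FPKM (adjusted p = 0.698) and the third chain C1qc at 12.9 ± 1.87 and 12.4 ± 0.196 FPKM (adjusted p = 0.808). F13a1 (ENSMUSG00000039109, chromosome 13 at 36867178 to 37050244), the catalytic subunit of clotting factor XIII, which crosslinks fibrin and is made by resident macrophages and platelets, was at 4.78, 5.00 and 5.86 FPKM across controls and 3.92, 6.01 and 6.09 FPKM in CCl4 libraries. CCl4 replicate 1 was the lowest and the other CCl4 libraries the highest of the 6, and the log2 fold change was 0.01 with a 95% interval from -0.32 to 0.35 (adjusted p = 0.952). The 7 platelet genes summed to 1.57 to 3.55 FPKM across controls and 1.16 to 2.26 FPKM in CCl4 libraries.

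Among surface receptors of identity and growth, Csf1r (ENSMUSG00000024621, chromosome 18 at 61100598 to 61132149), the receptor tyrosine kinase for the survival factors CSF1 and IL-34, was at 7.49, 7.03 and 8.53 FPKM across controls and 6.45, 7.62 and 7.23 FPKM in CCl4 libraries. The groups overlapped, with a log2 fold change of -0.10 and a 95% interval from -0.31 to 0.12 (limma adjusted p = 0.443). In the annotation 873 of its 5774 exon bases overlap exons of Hmgxb3 on the opposite strand. The libraries keep strand, but the sources used here do not say whether the authors' quantification used it. Adgre1 (ENSMUSG00000004730, chromosome 17 at 57358691 to 57483527), the F4/80 antigen, was at 3.68, 3.35 and 4.07 FPKM across controls and 3.45, 4.10 and 3.05 FPKM in CCl4 libraries. It held the highest and the second highest value in 1 library of each group, and the log2 fold change was -0.06 with a 95% interval from -0.30 to 0.18 (adjusted p = 0.708). For these uncalled genes the intervals limit the difference without showing that it is absent.

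**Figure D3:**
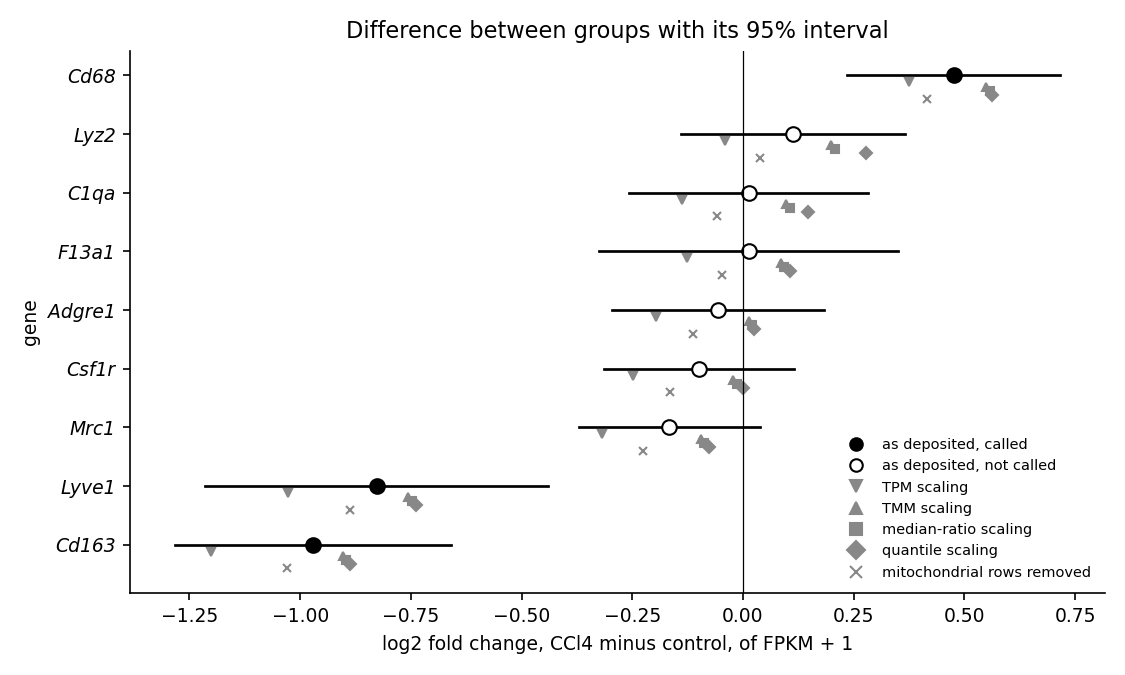
Log2 fold change (CCl4 minus control, of FPKM + 1) of the 9 tested macrophage genes, with circles and 95% intervals for the values as deposited, filled where called, and grey symbols for other scalings of the libraries. Cd163 and Lyve1 lay below 0 and Cd68 above 0 under each scaling shown.

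Ccr2 (ENSMUSG00000049103, chromosome 9 at 124101950 to 124113557), which marks monocyte-derived cells, was the scarcest member. It was at 0.45, 0.44 and 0.59 FPKM across controls and 0.71, 0.89 and 0.89 FPKM in CCl4 libraries. All 3 CCl4 libraries lay above all 3 controls, with means of 0.493 and 0.830 FPKM, a ratio of 1.68. Groups lay apart in 48.7% of tested rows, but the share among rows as scarce as Ccr2 was not computed. Its mean over the 6 libraries, 0.662 FPKM, kept it out of the test. In a fit of all 27449 rows above 0 the log2 fold change of 0.29 did not pass (limma adjusted p = 0.0837; 2.99% of rows called higher). With the filter lowered to a mean of 0.5 FPKM, a level chosen after its values were seen and one that its control mean does not reach, it passed (adjusted p = 0.0414; 8.71% called higher). Over Csf1r, Ccr2 stood at 0.0639 ± 0.00469 in control and 0.117 ± 0.00651 in CCl4 libraries, and over Cd163 at 0.0794 ± 0.0153 and 0.311 ± 0.0450 (SD, n = 3 each). The ratio to Cd163 had to differ, since Ccr2 lay apart upwards and Cd163 downwards.

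Other resident macrophage genes moved in both directions. Of 13 tested genes of that list, 3 rose and 1 fell, with a median log2 fold change of 0.22, and 9 further genes lay under the filter. Over all tested rows 9.64% were called higher and 22.2% lower, with a median of -0.09. Folr2, the folate receptor beta that resident cells share with Lyve1, was at 2.48, 2.27 and 2.16 FPKM across controls and 4.26, 4.66 and 3.87 FPKM in CCl4 libraries. It thus rose (log2 fold change 0.67 ± 0.08, SE, limma adjusted p = 0.00121) in the libraries in which Lyve1 fell. The Folr2 to Lyve1 ratio was 0.318 ± 0.107 in control and 1.14 ± 0.242 in CCl4 libraries. Its groups had to lie apart, since those of each gene lay apart in opposite directions, so the ratio is no further result. Fcna, ficolin A, a lectin that starts complement, rose from 0.737 ± 0.263 to 1.65 ± 0.242 FPKM (adjusted p = 0.00971). Its control mean lay under 1 FPKM, so it entered the test through the CCl4 libraries, and it was also called with no filter (0.0455). Cbr2, a carbonyl reductase, rose from 6.01 ± 0.435 to 8.48 ± 1.18 FPKM (adjusted p = 0.0164), a call lost without CCl4 replicate 3 (0.0541) and without the filter (0.0536). Selenop, a selenium carrier also made by many other cells, fell from 144 ± 23.0 to 111 ± 3.54 FPKM (adjusted p = 0.0414), a call lost under 9 of 20 alternatives, among them TMM, median-ratio and quantile scaling and the omission of any library but control replicate 1 (0.0544 to 0.111). Timd4, the receptor for phosphatidylserine on dying cells, lay under the filter at 0.597 ± 0.266 and 0.693 ± 0.101 FPKM. Without control replicate 3 the number of higher genes in the list was 6.

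Of 15 tested pan-macrophage genes outside the 10, 2 rose and 3 fell, with a median of -0.05. Without control replicate 2 the counts were 1 and 5, and 1 rose without control replicate 1, CCl4 replicate 1 or CCl4 replicate 3. These counts are to be read against the 9.64% of all tested rows called higher and the 22.2% called lower. Lgmn, the lysosomal protease legumain, rose from 16.7 ± 3.52 to 26.3 ± 0.948 FPKM (limma adjusted p = 0.0106). Mertk, the kinase by which macrophages take up dying cells, fell from 2.93 ± 0.311 to 1.80 ± 0.272 FPKM (adjusted p = 0.00848), and the immunoglobulin receptor Fcgr3 from 8.79 ± 0.680 to 6.59 ± 0.310 FPKM (adjusted p = 0.0113). Cd14, the co-receptor for bacterial lipopolysaccharide, fell from 3.54 ± 0.770 to 2.02 ± 0.370 FPKM (adjusted p = 0.0171), a call lost without CCl4 replicate 1 (0.0581), without CCl4 replicate 3 (0.0625) and without the filter (0.0698). Of 14 tested genes of Fc receptors and phagocytosis, a list that shares Mertk and Fcgr3, 4 fell and none of the others was called, with a median of -0.01, but 2 were called higher without control replicate 3 and 1 with TMM, median-ratio or quantile scaling. Fcgr2b, the inhibitory immunoglobulin receptor, lost its call on omission of control replicate 1 or 3 or of CCl4 replicate 1 (adjusted p 0.0600 to 0.0639). No filter (0.0750) and the replicate block (0.0553) also lost it. The most abundant of them, Cd36, a fatty acid and lipoprotein receptor, is abundant in heart muscle and capillaries and was at 573 ± 43.3 and 332 ± 28.0 FPKM.

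**Figure D4:**
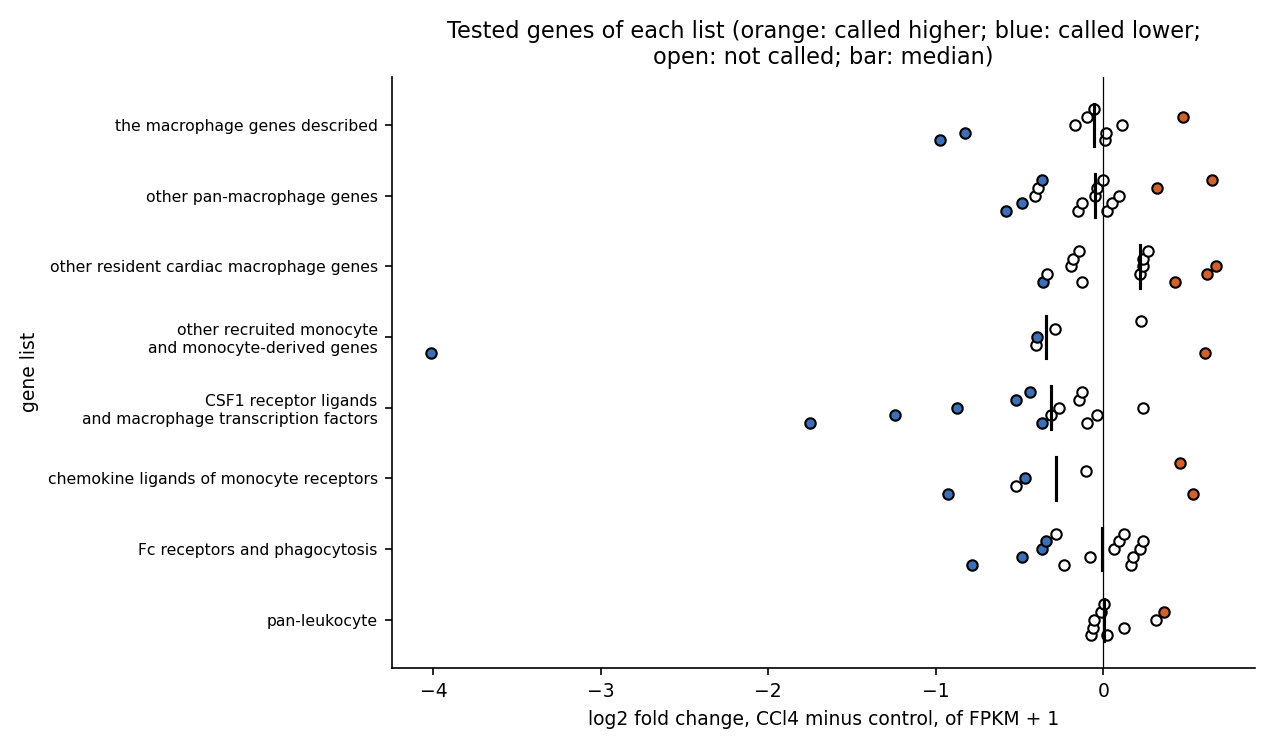
Log2 fold change (CCl4 minus control, of FPKM + 1) of each tested gene of the macrophage and leukocyte lists, one row per list, orange where called higher, blue where called lower and open where not called, with a bar at the median. The transcription factor list held 6 of 13 tested genes called lower and none called higher, where 22.2% of all tested rows were called lower. The farthest point on the left is Nr4a1.

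A list of macrophage growth factors, their receptors and transcription factors, Csf1r among them, had 13 tested genes, of which 6 fell and none was called higher, with a median of -0.31, where 22.2% of all tested rows were called lower. At a mean of at least 5 FPKM 2 of the list were called lower and as TPM 8, and 1 was called higher with TMM, median-ratio or quantile scaling or library weights. Csf2ra, a receptor subunit for the growth factor GM-CSF, fell from 2.41 ± 0.184 to 1.66 ± 0.335 FPKM (limma adjusted p = 0.0351). Cebpb, a C/EBP factor of myeloid cells and of acute responses in many cell types, fell from 30.5 ± 3.93 to 8.32 ± 0.805 FPKM (log2 fold change -1.75 ± 0.11, SE, limma adjusted p = 8.39e-05). Klf4, which also acts in endothelium, fell from 18.4 ± 6.10 to 6.96 ± 0.176 FPKM (adjusted p = 0.00238), and Nr1h3, the oxysterol receptor LXR alpha, from 5.77 ± 0.478 to 3.99 ± 0.190 FPKM (adjusted p = 0.00562). The ligand Csf1 was at 5.34 ± 0.670 and 6.47 ± 0.436 FPKM (adjusted p = 0.0932), Il34 at 2.24 ± 0.382 and 1.62 ± 0.427 FPKM (adjusted p = 0.126), and Spi1, which encodes PU.1, at 1.64 ± 0.287 and 1.38 ± 0.207 FPKM (adjusted p = 0.333). Bulk libraries do not show which cells these factors came from.

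Genes of recruited monocytes were mostly scarce. Of 25 such genes 19 lay under the filter, and of the 6 tested 1 rose and 2 fell, with a median of -0.34. Among all tested rows 9.64% were called higher and 22.2% lower. Nos2, the inducible nitric oxide synthase, rose from 1.29 ± 0.0586 to 2.51 ± 0.488 FPKM (limma adjusted p = 0.00548). Nr4a1, a nuclear receptor of patrolling monocytes that is also an immediate early gene in many cells, fell from 54.9 ± 24.8 to 2.36 ± 0.998 FPKM (adjusted p = 0.00015). Ly6c2, the surface antigen of classical monocytes, was at 1.59 ± 0.436 and 0.953 ± 0.295 FPKM (adjusted p = 0.0711), on the side opposite to Ccr2. The other fall, Ms4a6c, a membrane protein of monocytes, had an adjusted p of 0.0463 and lost its call under 14 of 19 alternatives, among them the omission of any library but CCl4 replicate 2 (0.0563 to 0.0951).

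Chemokines that draw monocytes were split, with 2 of 6 tested genes higher and 2 lower and a median of -0.28. The shares of all tested rows were 9.64% higher and 22.2% lower. Ccl6 fell from 8.36 ± 0.909 to 3.94 ± 0.843 FPKM (limma adjusted p = 0.00175). Ccl7, a ligand of CCR2, was at 0.757 ± 0.300 and 1.39 ± 0.125 FPKM (adjusted p = 0.0298) and the fractalkine gene Cx3cl1 at 1.69 ± 0.668 and 2.83 ± 0.0808 FPKM (adjusted p = 0.0312). Ccl7 entered the test through its CCl4 level, and its call was lost with no filter (adjusted p = 0.101) and when any 1 library other than control replicate 1 was left out (0.0578 to 0.0878). That call was lost as TPM (0.0543) and with the replicate block (0.0549) too. The Cx3cl1 call was lost with no filter (0.109) and when any 1 library other than control replicate 3 was left out (0.0707 to 0.0913). Ccl9 fell from 2.85 to 1.79 FPKM (adjusted p = 0.0368), a call lost without control replicate 1 or 3 or CCl4 replicate 1 or 3 (0.0696 to 0.105). It was also lost with no filter (0.120) and with the replicate block (0.0789). Ccl2, the main ligand of CCR2, lay under the filter at 0.873 ± 0.830 and 0.800 ± 0.217 FPKM.

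Other blood cells stood as follows beside these genes, where 9.64% of all tested rows were called higher and 22.2% lower. Of 9 tested pan-leukocyte genes 1 rose and none was called lower, with a median of 0.00184, and their summed level, with the 3 untested genes, was 26.0 to 32.8 FPKM across controls and 30.8 to 35.6 FPKM in CCl4 libraries. Arhgdib, the called one, lost its call under 8 of 20 alternatives. It was lost without control replicate 2 or any CCl4 library (adjusted p 0.0512 to 0.0945), as TPM (0.132) and without mitochondrial rows (0.0556). No filter (0.0882) and the replicate block (0.0608) lost it too. The 12 T and NK cell genes all lay under the filter and summed to 2.68 to 4.71 FPKM across controls and 1.37 to 2.60 FPKM in CCl4 libraries, and the 7 mast cell genes, also untested, to 2.54 to 3.77 and 3.36 to 5.43 FPKM. Of 5 tested dendritic cell genes, Clec9a was called lower (adjusted p = 0.0358). It entered the test through its control level, and the call was lost with no filter (0.115) and with TMM, median-ratio or quantile scaling (0.0519 to 0.0595). The call held only without control replicate 3 among the omissions of 1 library (elsewhere 0.0523 to 0.112). The B cell list summed to 2.59 to 6.04 and 4.47 to 6.85 FPKM. Of 5 red cell genes all were called higher, but none was without control replicate 2, control replicate 3, CCl4 replicate 2 or CCl4 replicate 3, with robust variances or with no filter, and 3 were without CCl4 replicate 1. They had sums of 537 to 2268 FPKM across controls and 2231 to 4092 FPKM in CCl4 libraries and with control replicate 1 at the level of the lowest CCl4 library. The part of blood carried in the samples was not tested.

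**Figure D5:**
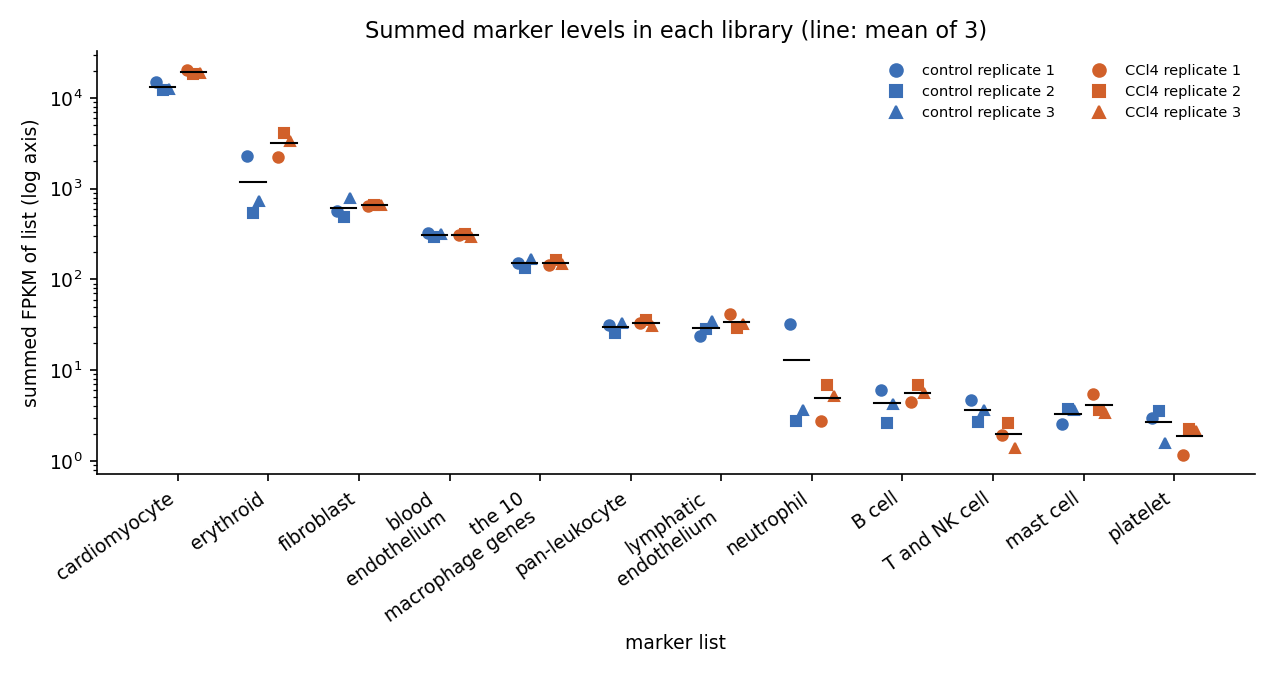
Summed FPKM of each marker list in each library on a log axis, control in blue and CCl4 in orange, with a line at the mean of 3 libraries. The 10 macrophage genes summed to 133 to 169 FPKM in every library with overlapping groups, while neutrophil genes stood out in control replicate 1. Lyz2 (control mean 86.1 FPKM) and C1qa (25.0 FPKM) carried most of the macrophage sum (control mean 151 FPKM), so it does not stand for the other members.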

How the data were processed

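RNA was measured in 6 libraries, 3 control and 3 CCl4, grouped by their titles. The deposited values are FPKM made by the authors with StringTie 2.1.6 on GRCm38, per the submitters' processing notes, from oligo(dT)-selected, strand-marked libraries, per the labels' protocols. For the aligner, annotation, filters and strand setting, nothing is given in the sources used here. FPKM sums ran from 519609 to 602763 per library, and 60 symbols stood on more than 1 row, none of them named here. Depth is unknown. Of the low values of single-exon genes, 26.7% to 33.9% came within 10% of a whole fragment count, at the best of many step sizes tried per library. Evenly spread values would give 20% at 1 fixed step and more at the best of many, so these shares decide nothing about depth.

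Rows averaging 1 FPKM or more were tested on log2(FPKM + 1), a scale that understates changes of low genes, with limma 3.58.1 in R 4.3.3 (eBayes with trend, two-sided, no covariate, Benjamini-Hochberg adjustment over 10995 rows), tested on simulated data first. The members and lists were chosen with earlier results of these data known. Of each macrophage or leukocyte list at most 4 genes with the smallest p and 2 with the highest level were named by rule. C1qc, Csf1, Il34, Spi1, Timd4, Ccl2 and Ptprc were named after their values were seen, and some genes within the rule are not reported here. Positions are from GENCODE M21 on GRCm38 and promoters from RefSeq on GRCm38.p6, and motifs were searched in 250 bases. Alternatives comprised pseudocounts, filters, scalings, variance models, a replicate block and the omission of each library.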

Additional observations from a re-analysis of the deposited data

How the results depend on the processing

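Cd163 and Lyve1 stayed lower and Cd68 higher, each called, under every alternative in which it was tested. Log2 fold changes ran from -1.22 to -0.84 for Cd163 (adjusted p 0.000804 to 0.0135, 19 alternatives), from -1.03 to -0.70 for Lyve1 (0.00192 to 0.0417, 20) and from 0.38 to 0.59 for Cd68 (0.00255 to 0.0428, 20). Of 177 values of the 9 tested members under alternatives, 176 kept their side of the threshold, and Mrc1 as TPM was the exception. The number of members called higher was 2 with a mean of at least 0.5 FPKM, which admits Ccr2. The number called lower was 1 with a mean of at least 5 FPKM, which leaves out Cd163, and 2 when any 1 library was left out.

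Over all genes 3501 rows were called, against 2165 with a mean of at least 5 FPKM, and 2188 to 3258 when 1 library was left out, lowest without CCl4 replicate 3. Rows called higher numbered 1060, against 617 as TPM, 655 at a mean of at least 5, 1722 with quantile scaling, 648 without control replicate 2 and 642 without CCl4 replicate 3. Rows called lower numbered 2441, against 4221 as TPM, 1510 at a mean of at least 5 and 1546 without CCl4 replicate 3. The cause was not tested.

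No sign of pairing by replicate number was seen, though 3 libraries per group cannot settle that there was none. Deviations of same-numbered libraries from their group means correlated at -0.06, 0.05 and -0.04 across genes, and no control library correlated best with its own number. With the replicate block 2651 rows were called, with 1 member higher and 2 lower. Depth is unknown, so counting error of scarce genes such as Ccr2 could not be given.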
